A study of Mus musculus with 6 samples.

Results

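Collagen and laminin chains are the subunits of the extracellular matrix proteins described here in testes of Wt and Dazap1 mutant mice. Members were taken by gene symbol, as every gene named like a collagen alpha chain or a laminin alpha, beta or gamma chain for which the array had a probe set naming that gene alone. This gave 52 chains of 18193 genes, and the brightest probe set stood for each chain. Of these 52, 42 were bright enough to be tested and 10 lay under the filter on dim probe sets. By class, 11 chains are fibrillar collagens (9 tested), 16 are basement membrane chains, that is type IV collagens and laminins (15 tested), and 25 are other collagens (18 tested).

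Each collagen molecule winds its alpha chains into a triple helix. Fibrillar collagens such as types I, III and V assemble into the striated fibrils of connective tissue, whereas type IV collagen forms a sheet-like network in basement membranes. Laminins are cross-shaped trimers of an alpha, a beta and a gamma chain, and they form the other network of the basement membrane. In the testis, a basement membrane surrounds each seminiferous tubule and is laid down by Sertoli cells on its inner side and peritubular myoid cells on its outer side. Fibrils fill the tubule wall, the interstitium and the capsule. Dazap1 encodes an RNA-binding protein.

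Total RNA of whole testes at postnatal day 21 was hybridised to Affymetrix Mouse Genome 430 2.0 arrays, with 3 samples from Wt mice and 3 from homozygotes of the Dazap1 allele called floxed with neo (Fn), all on a mixed C57BL/6 and 129 background. As a model, Fn is an altered DAZAP1 carrying extra residues in its RNA-binding region rather than a loss of the protein, and the mice sampled are the minority of homozygotes that live, which grow poorly. The sample titles call the samples of a genotype biological replicates. The RNA preparations differed between them, but which animals gave each is not stated, so a p-value covers the spread among the samples at hand. Dazap1 itself gave signals of 4323, 4462 and 5046 in Wt and 2538, 2735 and 2819.8 in Fn testes, a log2 change of -0.77 (SE 0.088, limma adjusted p = 6.7e-05). The place of its probe set in the gene was not at hand, so this is no full check of the genotype labels. The authors were concerned that Fn spermatocytes at day 21 might be less advanced than Wt ones, because the mutants grow poorly. Genotype and stage of development therefore cannot be told apart in these samples.

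Values are MAS5 signals, an intensity on a linear scale that the authors had brought to a common level on all arrays. A change is the difference of mean log2 signals, Fn minus Wt, and a chain is said to rise or fall where limma's adjusted p over all probe sets tested was under 0.05. The median change of the 13447 genes tested was 0.32 on this scale. Quantile normalization made it 0.25 and centring each array on its median 0.17. Changes of the chains are therefore to be read against 0.32. In whole testes, more cells of a type and more RNA per cell cannot be told apart. The germ cell markers moved strongly with genotype, where 44.9% of all genes rose and 24.7% fell. Of pachytene spermatocyte genes 10 of 11 fell, and of round spermatid genes 9 of 9, with medians of -1.97 and -3.50. Of spermatogonial genes 9 of 9 rose, with a median of 0.80. With the median change of all genes subtracted, 5 of these 9 rose and 0 fell. The part of these differences in the changes below was not tested.

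Most chains were higher in Fn than in Wt testes. Of the 42 tested, 32 rose, 5 fell and 5 did not pass the test. Among all genes tested, 44.9% rose and 24.7% fell. The median change of the chains was 0.92, which lies 0.59 above that of all genes. The 3 Fn signals lay above the 3 Wt signals for 34 chains and below them for 5, against 48.9% and 26.6% of all genes, and the groups overlapped for the other 3 (Col6a4, Col7a1 and Col26a1). The rise was more than 2-fold for 19 chains and the fall more than 2-fold for 3, where 11.8% and 13.9% of all genes passed those folds. These folds are measured from 0. Above the median change of all genes, Col5a2 alone rose more than 2-fold (1.46 on the log2 scale), and the next was Col4a6 (0.98). Below that median, all 5 falls were more than 2-fold. With the median change of all genes subtracted from the Fn arrays, an alternative added after the data were seen, 25 chains rose and 5 fell, against 25.8% and 33.9% of all genes.

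**Figure D1:**
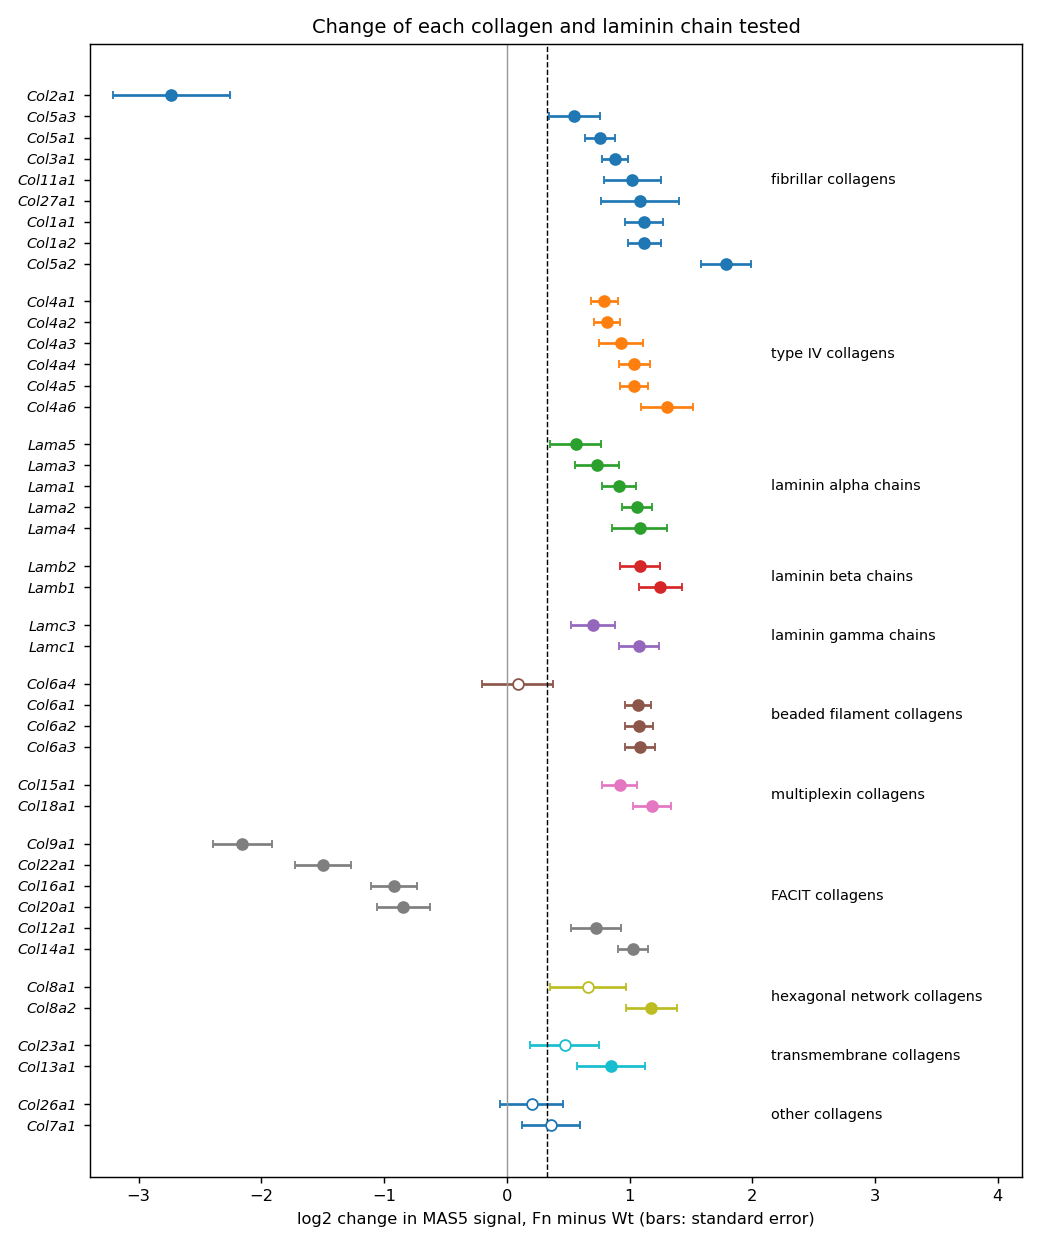
Log2 change in MAS5 signal, Fn minus Wt (x axis), of each of the 42 chains tested, grouped by class. Points are limma estimates from 3 arrays per genotype, bars are standard errors, filled points passed an adjusted p of 0.05, and 0.32, the median of all genes, is drawn dashed. All 15 type IV collagen and laminin chains lie right of that line, while Col2a1 and 4 FACIT collagens lie left of 0.

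To show members of both classes that moved together, the bases before the start of 2 fibrillar and 2 basement membrane genes follow, read from the RefSeq promoter table, 5′ to 3′ on the coding strand, with capitals marking a CCAAT box (CCAAT), a GC box (GGGCGG) or a TATA box (TATAAA) on either strand. Each stretch ends before the first transcribed base of any RefSeq transcript of the gene. The 4 genes all rose in Fn testes, Col1a2 and Col3a1 among the fibrillar collagens and Col4a5 and Lamb2 among the basement membrane chains.
Col1a2 (GRCm38.p6 chr6:4505368-4505617, plus strand): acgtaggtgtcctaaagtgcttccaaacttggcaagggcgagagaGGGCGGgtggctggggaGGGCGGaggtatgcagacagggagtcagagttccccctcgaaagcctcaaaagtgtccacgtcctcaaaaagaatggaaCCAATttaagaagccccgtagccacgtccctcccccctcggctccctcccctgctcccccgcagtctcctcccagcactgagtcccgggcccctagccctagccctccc
Col3a1 (GRCm38.p6 chr1:45311288-45311537, plus strand): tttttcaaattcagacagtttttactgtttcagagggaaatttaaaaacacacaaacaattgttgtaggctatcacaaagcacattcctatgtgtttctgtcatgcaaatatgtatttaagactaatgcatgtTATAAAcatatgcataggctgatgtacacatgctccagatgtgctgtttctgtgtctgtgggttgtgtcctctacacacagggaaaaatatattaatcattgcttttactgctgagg
Col4a5 (GRCm38.p6 chrX:141475169-141475369, plus strand): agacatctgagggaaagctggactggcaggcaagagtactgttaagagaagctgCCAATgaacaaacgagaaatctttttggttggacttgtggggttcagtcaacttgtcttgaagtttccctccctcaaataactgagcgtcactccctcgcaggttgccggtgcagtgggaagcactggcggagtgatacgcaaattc
Lamb2 (GRCm38.p6 chr9:108479612-108479846, plus strand): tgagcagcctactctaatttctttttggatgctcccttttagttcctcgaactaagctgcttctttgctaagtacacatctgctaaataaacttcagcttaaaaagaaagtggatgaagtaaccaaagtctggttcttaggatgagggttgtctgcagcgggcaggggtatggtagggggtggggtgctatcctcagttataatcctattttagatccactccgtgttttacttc

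No motif was common to all 4 windows. Col1a2, a chain of type I collagen, has a CCAAT box and GC boxes, Col3a1 has a TATA box, Col4a5 has a CCAAT box in the bases shown and a GC box nearer to its start, and Lamb2 has none of the motifs. A window was at hand for 38 chains. A chain was counted if any of its windows had the motif, whereas the share of all windows is per window. Over the 250 bases before the start on both strands, GGGCGG stood in 22 of 38 chains and in 32.7% of all 32851 windows of the same length. GGGCGG stood in 13 of 22 chains that rose, 1 of 3 that fell, 4 of 4 that did not pass and 4 of 9 not tested. It was present in 6 of 8 fibrillar and 5 of 10 basement membrane chains. CCAAT stood in 14 of 38 (33.8% of all windows), TATAAA in 5 of 38 (12.4%) and the AP-1 letters TGANTCA in 1 of 38 (6.75%). TATAAA was found in 2 of 8 fibrillar and 0 of 10 basement membrane chains. No motif searched contains another, and a match describes the letters of the window alone.

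Fibrillar collagens rose with 1 exception. Of 9 tested, 8 rose and Col2a1 fell, and the median change was 1.02, which is 0.70 above that of all genes. With the median change of all genes subtracted, 6 of 9 rose, and Col5a3 and Col27a1 no longer passed. Col5a2, a chain of type V collagen, which takes part in starting fibrils and setting their width, had the largest rise of all 42 chains. Its signals were 411, 477 and 257.2 in Wt and 1223, 1282 and 1313 in Fn testes. The lowest Fn signal was more than 2-fold above the highest Wt signal. The change was 1.78 (SE 0.20, limma adjusted p = 6.73e-05), a 3.44-fold rise, and a further probe set of Col5a2 gave 1.73. The other type V chains changed less: Col5a1 rose by 0.76 (SE 0.125), and Col5a3 by 0.55 (SE 0.207, limma adjusted p = 0.0418). The call of Col5a3 was lost in 11 of 18 alternative settings, among them those without Wt replicate 1 or 3 or Fn replicate 1 or 2 (changes of 0.44 to 0.56).

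Both chains of type I collagen, the main collagen of connective tissue, rose more than 2-fold. Above the median change of all genes, the rises were 0.79 for Col1a1 and 0.80 for Col1a2 on the log2 scale. Col1a1 gave 2178, 3164 and 2056 in Wt and 4765, 5251 and 5783 in Fn testes. Col1a2, its partner in the type I trimer, gave 5835, 6929 and 4509 in Wt and 11702, 13588 and 11771 in Fn testes. Both changed by 1.12 (SE 0.153 and 0.138, limma adjusted p = 0.000201 and 0.000106), and no Fn signal of either overlapped the Wt signals. In both, Wt replicate 2 was the highest Wt array. Col3a1, the sole chain of type III collagen, which lies beside type I in soft tissues, gave 7696, 8671 and 6353 in Wt and 13284, 13374 and 14849 in Fn testes. This is a change of 0.88 (SE 0.106), while its other probe set gave 1.66, so the size of the Col3a1 rise depends on the probe set.

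Col11a1 and Col27a1, known best from cartilage, rose by 1.02 (SE 0.232) and 1.08 (SE 0.316). Their signals were 64.3 to 71.1 in Wt against 112.4 to 160.5 in Fn testes for Col11a1, and 61.2 to 137.4 against 141.9 to 227.5 for Col27a1. Without Wt replicate 3, another probe set of Col11a1 was the brighter and gave 1.67. Col2a1, the chain of the main cartilage collagen, went the other way. It gave 207.9, 250 and 253.4 in Wt and 15.7, 75.2 and 37.9 in Fn testes. The log2 change was -2.73 (limma adjusted p = 0.000837), and because its Fn geometric mean was below 48.0, the level of the filter, the fall is given as at least 4.92-fold. Without Col2a1 the median of the fibrillar chains was 1.05. Col11a2 and Col24a1 were under the filter, with signals of 9.7 to 77.4 and 13.8 to 27.4 over the 6 arrays, and the genotypes overlapped.

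**Figure D2:**
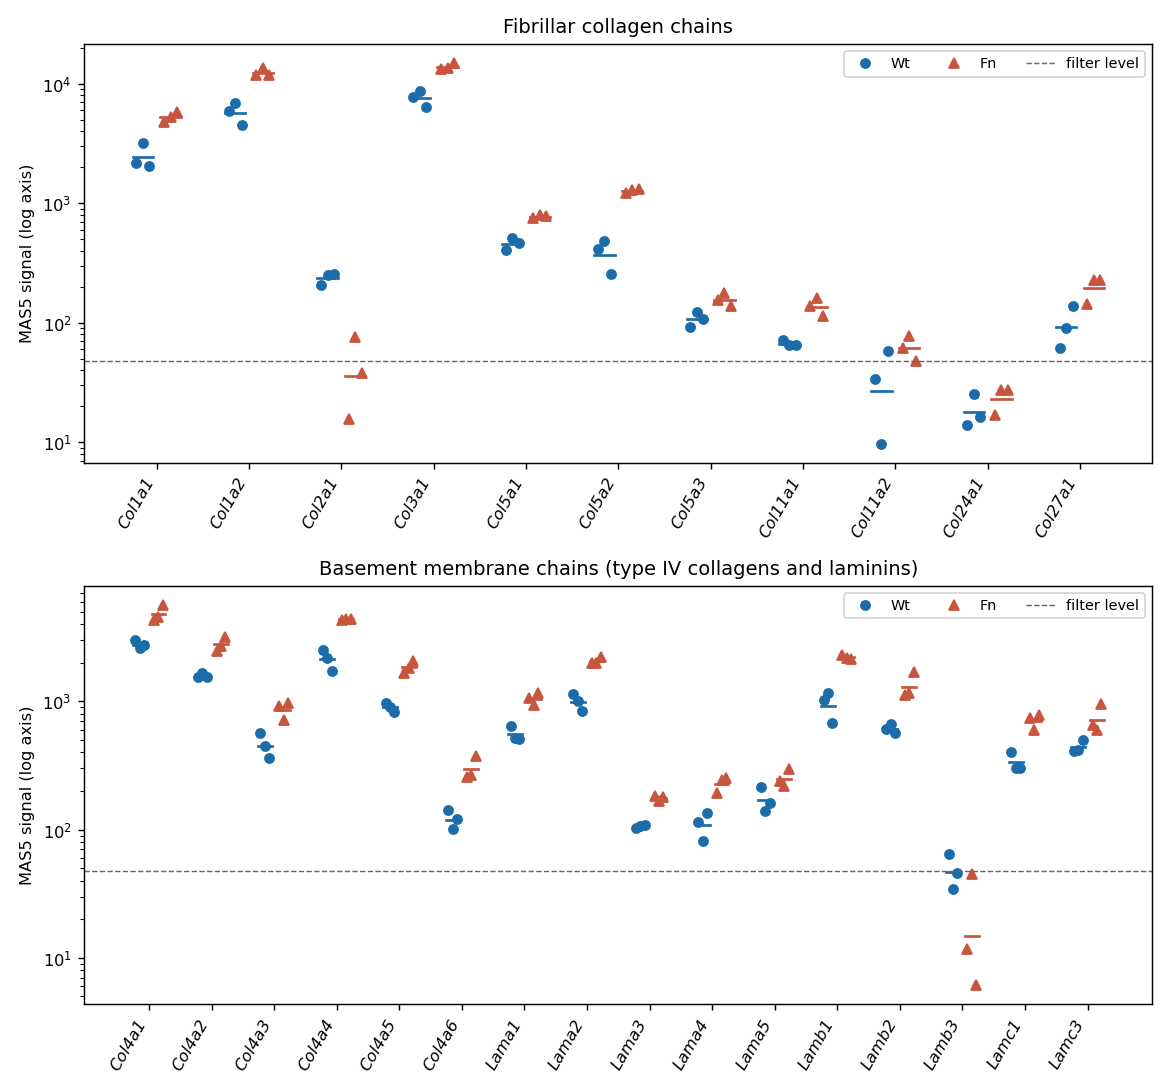
MAS5 signal (log axis) of each fibrillar collagen (top) and basement membrane chain (bottom) in each array, with circles for the 3 Wt and triangles for the 3 Fn samples. Short lines give geometric means, and the filter level of 48.0 is drawn dashed. Apart from Col2a1 and the dim Col11a2, Col24a1 and Lamb3, every Fn signal lies above every Wt signal of its chain.

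All 15 basement membrane chains tested rose. Their changes ran from 0.56 to 1.31 around a median of 1.04, which is 0.71 above that of all genes, and in each the Fn signals lay above the Wt signals. The rise was more than 2-fold for 8 of them, beside 11.8% of all genes. Above the median change of all genes, the largest rise was 0.98 on the log2 scale (Col4a6), short of 2-fold. With the median change of all genes subtracted, 12 of 15 rose. The 3 that no longer passed were Lama3, Lama5 and Lamc3.

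All 6 type IV collagen genes were among them. Col4a1 and Col4a2, the chains found in nearly all basement membranes, had the smallest changes of the family. Col4a1 gave 2996, 2594 and 2737 in Wt and 4283, 4560.1 and 5679.8 in Fn testes, a change of 0.79 (SE 0.113, limma adjusted p = 0.000247). Col4a2 gave 1558, 1672 and 1538 in Wt and 2489, 2725 and 3202 in Fn testes, a change of 0.81 (SE 0.107). Both genotypes were well apart, and Fn replicate 3 was the highest array for both chains.

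The chains with a narrower distribution among tissues, Col4a3 to Col4a6, which occur in the tubule basement membrane, rose by 0.93 to 1.31. Col4a4 gave 2535, 2196 and 1732 in Wt and 4330.4, 4369 and 4401 in Fn testes, a change of 1.04 (SE 0.127), with a spread among the Fn signals far smaller than the gap to Wt. Col4a3, its trimer partner, rose by 0.93 (SE 0.180). The X-linked Col4a5 gave 977.5, 897.8 and 826.4 in Wt and 1671, 1807 and 2075 in Fn testes, a change of 1.04 (SE 0.116, limma adjusted p = 5.99e-05). Col4a6, also X-linked, had the largest type IV rise, with 141.3, 100.5 and 120.6 in Wt and 256.6, 267.9 and 376.8 in Fn testes, a change of 1.31 (SE 0.211). The steps between neighbours in this order are within the larger of their standard errors except that from Col4a5 to Col4a6, 0.27 with standard errors of 0.116 and 0.211, which was not tested.

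Chains that lie next to each other in the genome had like changes in most cases. This was not particular to neighbours: Col4a4 and Col4a5, on different chromosomes, both changed by 1.04. The type IV genes are arranged head to head in pairs, with changes of 0.79 for Col4a1 and 0.81 for Col4a2, 0.93 for Col4a3 and 1.04 for Col4a4, and 1.04 for Col4a5 and 1.31 for Col4a6. By position on the chromosome, the start of Col4a2 minus that of Col4a1 is -21 bases, so these genes overlap at their starts. The stretches before the starts lie on opposite strands, each within the other gene, and do not overlap one another. Col6a1 and Col6a2, also neighbours, changed by 1.07 and 1.08. Col3a1 and Col5a2, adjacent on chromosome 1, changed by 0.88 and 1.78 by their brightest probe sets, and by 1.66 and 1.73 by their other ones. These differences between neighbours were not tested.

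The 9 laminin chains tested all rose, with a median of 1.06. Among the beta and gamma chains that most laminins share, Lamb1 gave 1017, 1158 and 676.9 in Wt and 2309, 2177 and 2137 in Fn testes, a change of 1.25 (SE 0.175, limma adjusted p = 0.000227), the largest of the laminins. Lamb2, which takes the place of beta 1 in mature basement membranes of kidney and nerve-muscle contacts, gave 613.5, 668.8 and 565.1 in Wt and 1115, 1173 and 1688 in Fn testes, a change of 1.08 (SE 0.162). Lamc1, the gamma chain of most laminins, gave 403.6, 305.3 and 303.9 in Wt and 744.7, 594.9 and 790.8 in Fn testes, a change of 1.08 (SE 0.164). The mean of all its probe sets gave 1.79, but this mean takes in a probe set under the filter. By their brightest probe sets, the genotypes overlapped in none of these chains.

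The alpha chain gives a laminin its tissue identity, and the rises of the 5 alpha chains ran from 0.56 to 1.08 with a median of 0.92. Lama2, the alpha chain around muscle, gave 1144, 1005 and 846.8 in Wt and 1988, 2005 and 2203 in Fn testes, a change of 1.06 (SE 0.123). Lama4, an alpha chain of vessel walls, gave 82.2 to 133.9 in Wt and 192.3 to 252.5 in Fn testes, a change of 1.08 (SE 0.227). Lama1, the early embryonic alpha chain that persists around adult tubules, gave 648.3, 514 and 508.2 in Wt and 1055, 931.9 and 1155 in Fn testes, a change of 0.92 (SE 0.138). Lama5, the broadest alpha chain of adult epithelia, had the smallest rise, 0.56 (SE 0.205, limma adjusted p = 0.0372). The call was lost in 12 of 19 alternative settings, among them those without Wt replicate 2 or 3 or Fn replicate 1 or 3 (changes of 0.43 to 0.59), and its other probe set gave 0.07.

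Laminin alpha 3, beta 3 and gamma 3 are known at the contact between Sertoli cells and elongating spermatids, beside their places in other epithelia. Lama3 rose from 103.1, 107.7 and 108.2 in Wt to 184, 167.2 and 179.3 in Fn testes (0.73, SE 0.177), and Lamc3 from 412.1, 418 and 500 to 654.7, 594.6 and 949 (0.70, SE 0.181). Lamb3 was under the filter, at 64, 34.4 and 46.2 in Wt and 11.8, 45.2 and 6.1 in Fn testes, where the groups overlapped. It was the sole basement membrane chain on the array that was not tested, and its mean signal was lower in Fn testes (21.03 ± 21.12 against 48.2 ± 14.9 for Wt, SD, n = 3 each).

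Fibrillar and basement membrane chains rose by near-equal amounts, with medians that differed by -0.01 on the log2 scale (fibrillar minus basement membrane) and by -0.19 to 0.16 over the alternative settings. This is a description without a test. The median over the chains of a class, each taken as log2 signal minus its Wt mean, was 0.82, 1.12 and 0.98 in Fn replicates 1 to 3 for the fibrillar chains. For the basement membrane chains it was 0.90, 0.83 and 1.10. The same quantity over all genes tested was 0.31, 0.31 and 0.32. Every Fn array lay above every Wt array in both classes, where Wt arrays ran from -0.15 to 0.21.

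The order of the arrays within a genotype is given as a description. Fn replicate 3 was the highest Fn array for 13 of 15 basement membrane chains, for 3 of 9 fibrillar chains and for 4943 of all 13447 genes. Fn replicate 1 was the lowest for 7 of 9 fibrillar chains and for 4171 of all genes. Among the Wt arrays, replicate 2 was the highest for 6 of 9 fibrillar chains and 4361 of all genes, and replicate 1 for 9 of 15 basement membrane chains and 4725 of all genes. Fibrillar minus basement membrane medians were -0.29, 0.21 and 0.08 in Wt replicates 1 to 3 and -0.07, 0.29 and -0.12 in Fn replicates 1 to 3, so the genotypes overlapped in this difference.

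**Figure D3:**
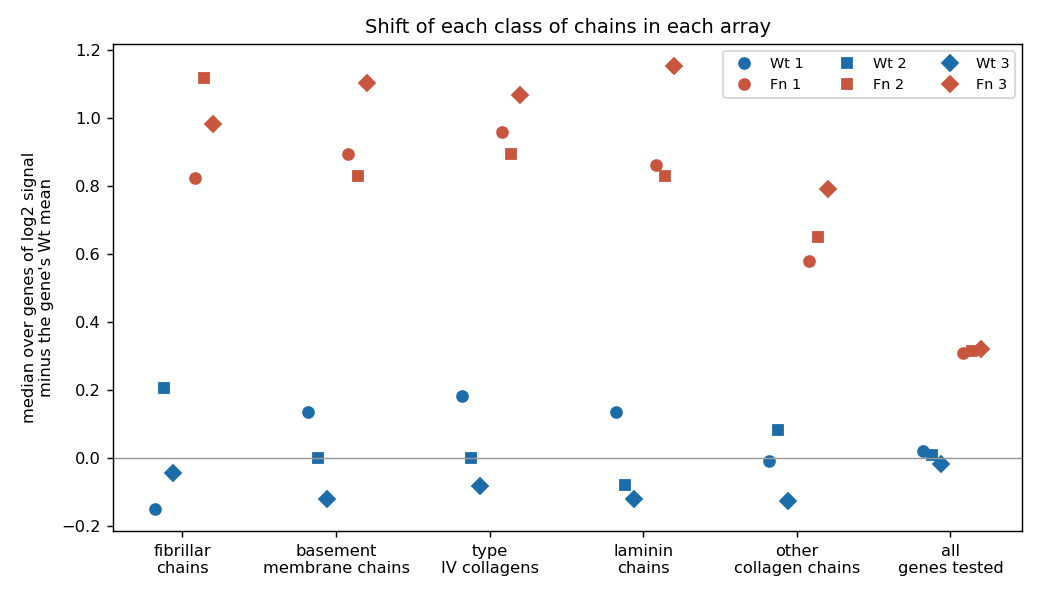
Median over the chains of each class of log2 signal minus the Wt mean of the same gene (y axis), for each array, with blue for Wt, red for Fn and a symbol for each replicate number. The Fn arrays lie between 0.82 and 1.12 for fibrillar and between 0.83 and 1.10 for basement membrane chains, above the 0.31 to 0.32 of all genes tested.

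The 25 other collagens moved in both directions: of 18 tested, 9 rose, 4 fell and 5 did not pass the test, with a median of 0.69. These shares are near the 44.9% and 24.7% of all genes. Type VI collagen, which forms beaded filaments beside basement membranes, rose in its 3 main chains by like amounts. Col6a1 gave 1895, 1960.4 and 1589 in Wt and 3587, 3698 and 4115 in Fn testes, a change of 1.07 (SE 0.104, limma adjusted p = 2.63e-05). Col6a2 and Col6a3 each changed by 1.08 (SE 0.114 and 0.121). Col6a4, a later-found relative, did not pass the test, at 452.7, 182.9 and 238.8 in Wt and 254.7, 300.2 and 310.5 in Fn testes (0.09, limma adjusted p = 0.80). The mean of all its probe sets gave 1.17 and passed, but this mean takes in a probe set under the filter. No other probe set of Col6a4 was tested.

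Col18a1, Col15a1, Col8a2 and Col13a1 rose as well. Col18a1, whose end is cut off as endostatin, gave 1566, 1187 and 1083 in Wt and 2869, 2444 and 3342 in Fn testes, a change of 1.18 (SE 0.156). Col15a1, its relative, rose by 0.92 (SE 0.144). Col8a2, a network-forming chain, rose by 1.17 (SE 0.207), from 92 to 116.6 in Wt to 188.4 to 280.4 in Fn testes. The transmembrane Col13a1 rose by 0.85 (SE 0.276, limma adjusted p = 0.0226), a call lost in 9 of 19 alternative settings, among them those without Wt replicate 1 or 3 or Fn replicate 2 or 3 (changes of 0.70 to 0.84). Col8a1, Col23a1, Col7a1 and Col26a1 did not pass the test, with changes of 0.66, 0.47, 0.36 and 0.20.

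FACIT collagens sit on the surface of fibrils and do not form fibrils of their own. This class was divided: 4 of 6 tested fell and 2 rose, beside 24.7% and 44.9% of all genes. Of the 4 falls, that of Col16a1 alone kept its call in every alternative setting. Col14a1, a FACIT of dense connective tissue, gave 296.3, 298 and 271.7 in Wt and 605.2, 563 and 592 in Fn testes, a change of 1.02 (SE 0.122), and Col12a1, of similar distribution, rose by 0.72 (SE 0.202). A further probe set of Col12a1 gave 0.62 and did not pass, and the call was lost in 4 of 18 alternative settings. Col16a1 gave 946.6, 1093 and 1168 in Wt and 422, 728.4 and 575.8 in Fn testes, a change of -0.92 (SE 0.187, limma adjusted p = 0.0020). All 3 Fn signals of Col16a1 were below its Wt signals.

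Col9a1, the FACIT chain known from cartilage fibrils, gave 200.5, 193.3 and 225.7 in Wt and 50.2, 54.3 and 36.1 in Fn testes. This fall was at least 4.29-fold against the filter level (log2 change -2.16, SE 0.241, limma adjusted p = 6.06e-05), but a further probe set gave -0.72 and did not pass. Without Wt replicate 2 that further probe set was the brighter, with a change of -0.96 that did not pass. Its partners in type IX collagen were dim and not tested, and their Fn signals lay above Wt: 31.3, 68 and 76.9 against 5.2, 14 and 2.5 for Col9a2, and 74.1, 49.7 and 44.3 against 18.8, 20.4 and 24.4 for Col9a3. The type IX chains did not lie on one side of Wt. Col20a1 fell by 0.85 on the log2 scale (SE 0.215). Of its other probe sets, 1 gave -0.66 and passed, and 1 gave -0.64 and did not. Col22a1, a collagen of tissue junctions, changed by -1.50 (SE 0.226) by its brightest probe set, while 2 others gave 0.43 and 1.12 without passing the test. The direction of Col22a1 depends on the probe set.

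The remaining chains under the filter were Col6a5, Col10a1, Col17a1, Col19a1 and Col25a1. Their signals over the 6 arrays ran from 1.7 in Col10a1 to 88.8 in Col17a1, and the genotypes overlapped in each. Col6a6 and Col28a1 had no probe set naming them alone and were not analysed here.

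For 22 chains more than 1 probe set was tested. All probe sets of a chain were higher for 19 chains and all lower for 2 (Col9a1 and Col20a1), and Col22a1 alone was mixed. In no chain did 1 probe set rise and another fall past the test. The spread between probe sets of a chain had a median of 0.22 and reached 2.62 in Col22a1.

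**Figure D4:**
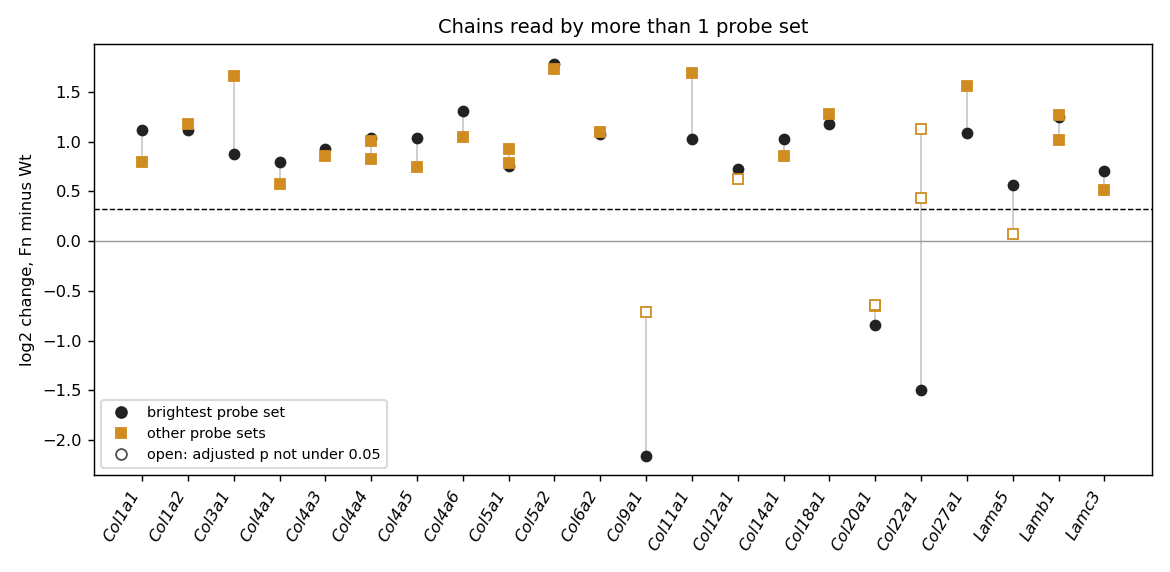
Log2 change, Fn minus Wt (y axis), of every tested probe set of the 22 chains with more than 1, with black circles for the brightest and orange squares for the others, open where the adjusted p was not under 0.05. A dashed line stands at 0.32, the median of all genes. Probe sets of a chain lie close together in most cases, and apart in Col22a1, Col9a1, Col3a1 and Col11a1.

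Genes that make, assemble and bind these chains also rose in most cases. Over 6 lists, 59 genes were tested, of which 49 rose, 2 fell and 8 did not pass, with a median of 0.90 beside 0.32 for all genes. Among all genes 44.9% rose and 24.7% fell. With the median change of all genes subtracted, 35 of the 59 rose and 3 fell, against 25.8% and 33.9% of all genes. Of the genes for folding and modifying collagen in the endoplasmic reticulum, 14 of 15 rose. Serpinh1, the collagen chaperone HSP47, went from 1250 ± 193 to 3230 ± 280.3 (SD, n = 3 each), a change of 1.38. P4ha1 and P4hb, subunits of the prolyl hydroxylase that stabilises the triple helix, rose by 0.93 and 0.72, and Ppib, a prolyl isomerase, by 0.80.

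Of the enzymes that trim and crosslink collagen outside the cell, 5 of 6 rose, including Lox, the lysyl oxidase, by 1.31 (SE 0.276), Bmp1, which removes a propeptide, by 1.22, Loxl3 by 0.99 and Loxl1 by 0.53. Among proteins bound to fibrils, 7 of 9 rose and 0 fell. Lum, a small proteoglycan that spaces fibrils, rose by 1.62 (SE 0.158), Ogn by 1.29, Dcn by 1.06 and Sparc by 0.51. Of the basement membrane partners, 10 of 12 rose. Nid1, which links laminin to type IV collagen, went from 1120 ± 33.8 to 2680 ± 136 (SD, n = 3 each), a change of 1.26, and Pxdn, which crosslinks type IV collagen, rose by 1.51. Dag1, which codes for the laminin-binding dystroglycan, rose by 0.79 and Smoc2 by 0.69. Smoc1 fell by 0.44 on the log2 scale, with overlapping groups.

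Of the receptors, 5 of 8 rose and 1 fell. Ddr1, a collagen-binding receptor kinase, rose by 1.33 (SE 0.108), Itga6, a laminin-binding integrin chain, by 1.20, Itgb1, its common partner, by 0.91, and Ddr2, a relative of Ddr1, by 0.73. Itga1, a collagen-binding integrin chain, fell by 0.51 on the log2 scale (limma adjusted p = 0.0486), also with overlapping groups. Of the matrix proteases and their inhibitors, 8 of 9 rose and 0 fell. They include Mmp2, which degrades type IV collagen, with 1.32, Mmp11 with 1.06, and the inhibitors Timp3 with 0.97 and Timp2 with 0.80.

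Most markers of stromal, peritubular myoid and Sertoli cells rose in the same arrays, beside 44.9% of all genes. Of 10 stromal genes, 9 rose, with a median of 1.17 and a summed signal of 10798 to 13469 in Wt and 25383 to 28275 in Fn testes. Tcf21, a transcription factor of stromal cells, gave 1349.9, 1491 and 1239 in Wt and 2921, 3478 and 3585 in Fn testes, a change of 1.29, and Cd34, Mgp and Gsn rose by 1.12, 1.06 and 0.97. Of 10 peritubular myoid genes, 7 rose (median 0.76, summed signal 12071 to 13999 in Wt and 20652 to 21941 in Fn testes), among them Myh11, the smooth muscle myosin, by 1.12, Cnn1 by 0.90, Mylk by 0.86 and Acta2 by 0.62. Of 13 Sertoli cell genes, 12 rose (median 0.76, 52069 to 59839 in Wt and 83466 to 85896 in Fn testes), among them Inhbb by 1.03, Rhox5 by 0.83, Wt1 by 0.76 and Inha by 0.73. Of 10 endothelial genes 4 rose (Eng, Emcn, Esam and Vwf), a share below that of all genes, and 2 with the all-gene median subtracted. Their median was 0.49 (1559 to 1703 in Wt and 2325 to 2732 in Fn testes). None of these 4 lists held a gene under the filter level in every array. The part of these cell types in the rise of the chains was not tested.

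Of 8 adipocyte genes tested, 6 rose, with a median of 1.79, and their summed signal was 2147 to 6529 in Wt and 7810 to 14125 in Fn testes, with Lep under the filter level in all arrays. Adipoq, the adipocyte hormone adiponectin, gave 153.6, 291.1 and 126.8 in Wt and 849.9, 675.7 and 418.9 in Fn testes, a change of 1.80. Fabp4 and Scd1 rose by 1.88 and 1.79, and Pck1 rose from 19.9 to 31.9 in Wt, under the filter level, to 97.9 to 118.4 in Fn testes. Mesothelial genes gave a summed signal of 476.8 to 523.1 in Wt and 607.1 to 663 in Fn testes, with 1 of 4 higher. Epididymal genes gave 551.1 to 1934 and 1142 to 2762, with 0 of 4 higher and 1 lower, and Leydig cell genes 6051 to 10021 and 6001 to 11818, with 2 of 4 higher. Of 9 macrophage genes tested, 4 rose and 1 fell (4373 to 5653 and 5578 to 7468). Among all genes tested, 44.9% rose and 24.7% fell. With the all-gene median subtracted, 5 of the 8 adipocyte genes rose. In that setting 0 of the macrophage, Leydig cell, mesothelial and epididymal genes rose. Whether tissue around the testis contributed to the chains was not tested.

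**Figure D5:**
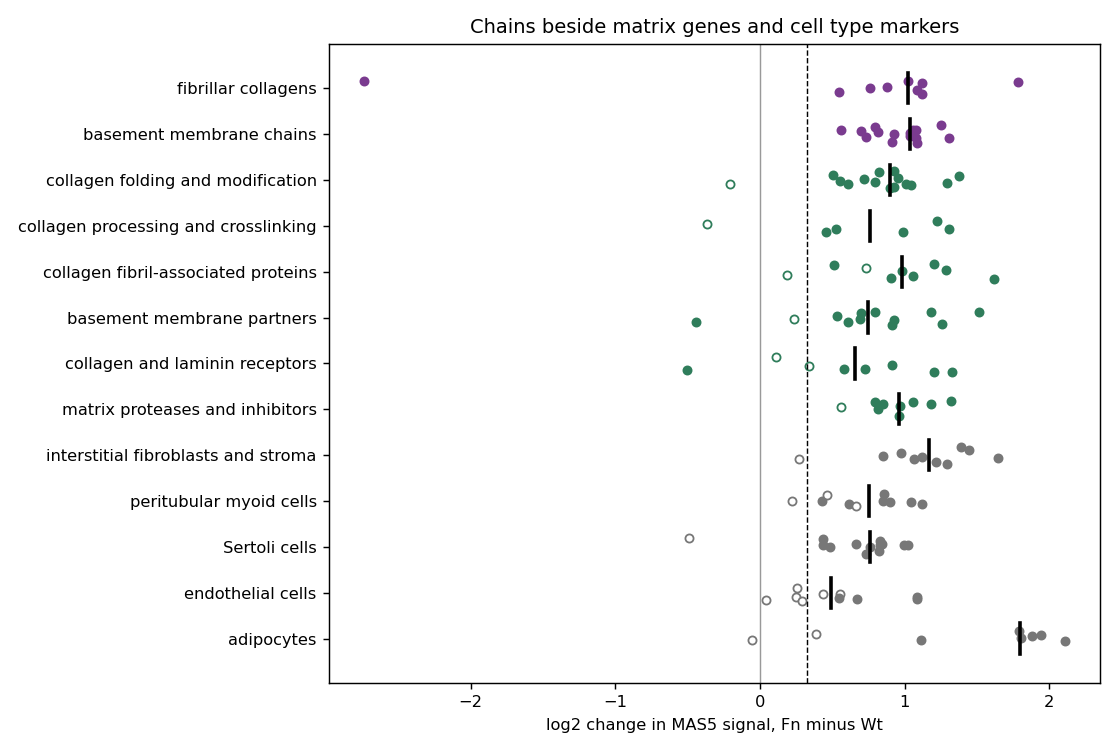
Log2 change, Fn minus Wt (x axis), of each gene tested in the 2 classes of chains (purple), in lists of genes that make, bind or remodel them (green) and in marker lists of somatic cells (grey). Filled points passed an adjusted p of 0.05, black bars are list medians and a dashed line stands at 0.32, the median change of all genes. For the 2 classes of chains the medians were 1.02 and 1.04, above those of the lists of partners and below those of the stromal and adipocyte genes.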

How the data were processed

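Each of 6 arrays measured the RNA of whole testes from postnatal day 21, 3 of Wt and 3 of Fn mice. The authors deposited MAS5 signals, an intensity per probe set, and the submitters' processing notes give no version of MAS5. The mean signal without the extremes was 498.4 to 498.6 on every array, so the arrays had been scaled before deposit. Detection calls were not used here. Of 45037 probe sets, 34945 named 1 gene in the platform annotation. All 52 chains matched the RefSeq table of GRCm38.p6, and 0 symbols differed.

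Log2 intensities were fitted with limma 3.58.1 in R 4.3.3 (lmFit, then eBayes with trend = TRUE) over the 27022 probe sets at or above the 40th percentile of mean log2 signal (48.0), with Benjamini-Hochberg adjustment over all of them. The 1 value of 0 was set to 0.1. The brightest probe set stood for a gene. Where a group mean lay under 48.0, the fold was taken against 48.0 and is a lower bound. The steps were tested on simulated data, and the number of arrays limits the precision.

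Named were all fibrillar and basement membrane chains, the other collagens past the threshold, and up to 4 genes of each list with the smallest p. Lists of germ, Leydig, macrophage, epididymal and mesothelial genes are given by counts, medians or sums. Chains not past the test, Col9a2, Col9a3, Lep, Smoc1 and Itga1 were added after their values were seen. The members and lists were chosen with earlier results of these data known. Same-numbered Wt and Fn arrays deviated together from their group means, with correlations of 0.13, 0.12 and 0.16, against -0.15 to 0.04 for other pairs, so the replicate numbers were taken to pair the samples. This rests on the values, not on a statement of the study. Arrays of one genotype had Spearman correlations of 0.973 to 0.984, and arrays of different genotypes 0.836 to 0.886. Protein sequences were not analysed here.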

Additional observations from a re-analysis of the deposited data

How the results depend on the processing

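The number of chains that rose was 24 to 33 over the alternatives, against 32. It was 27 with arrays centred on their medians and 24 of 26 tested with the filter at the 60th percentile. With the replicate block, 32 rose and 5 fell, and pairing changed no call among the 42 chains. The number that fell was 1 with the 60th percentile filter, 3 with the mean of all probe sets and 2 with the probe set of smallest change, against 5. The median of the basement membrane chains, 1.04, was 0.88 with arrays centred on their medians, 0.86 with the probe set of smallest change and 0.71 with the all-gene median subtracted, an alternative added after seeing the data, which gave 0.70 for the fibrillar chains. Leaving out each array in turn gave 29 to 31 chains higher and 4 to 5 lower, medians of 0.90 to 1.01 (fibrillar) and 0.89 to 1.08 (basement membrane), and a difference of -0.19 to 0.08. Col22a1 reversed to 0.018 with the mean of probe sets and 0.43 with the smallest change, which follow from its probe sets. Without Wt replicate 2, the other probe set of Col9a1 became the brightest and its change was -0.96, no longer past the test. Centring on the median of the genes tested left their median change at 0.24. Calls lost with arrays centred on their medians were Col5a3, Lama5, Col13a1, Col12a1 and Lamc3, and the causes were not tested. Without detection calls, signal over background is known here only through the filter level.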
